A study of Mus musculus with 3 samples.

Results

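The Bcl2 family of survival and death genes was followed through single brain cells by 10 genes, chosen by symbol from the 27998 genes of the matrix, and all 10 were found. They are 6 pro-survival genes (Bcl2, Mcl1, Bcl2l1, Bcl2a1a, Bcl2a1b and Bcl2a1d), the pore-forming genes Bax and Bak1, and the BH3-only genes Bcl2l11 and Bid. The cells came from whole brains without cerebellum of female C57BL6J mice aged 5 months and were sorted by flow cytometry for Cd11b, an integrin found on microglia and on myeloid cells of the blood. The labels describe 3 groups: untreated (Ctrl, 1 animal), 14 days on a diet with PLX5622 at 1200 mg/kg (D0, 2 animals pooled), and the same diet followed by 2 days of control diet (D2, 1 animal). PLX5622 inhibits Csf1r, the receptor tyrosine kinase on which microglia depend for survival, and the diet is used to deplete them. The protocol mentions 4 samples, and the labels describe 3.

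The counts are those of unique molecular identifiers (UMIs, 1 per captured RNA molecule) from the 3′ ends of transcripts, in 1 matrix of 2149 cells whose barcodes end in 1, 2 or 3. No label or file used here ties these suffixes to Ctrl, D0 or D2, so Ctrl, D0 and D2 were not compared. Each suffix was taken as 1 library, which no label states. The labels describe no replicates, so no test across animals was possible and no p-value is given. All intervals are exact 95% intervals for counting error alone, without the spread from animal to animal or cell to cell. The suffixes held 1263, 599 and 287 cells with 6410990, 4022293 and 2831118 UMIs, and median depths of 3662, 6188 and 8172 UMIs per cell. No barcode sequence was shared between suffixes (0 in each pair). Levels are counts per 1000000 UMIs (CPM) after summing the cells of each class and suffix, for the 17 such sums with at least 20 cells. A class is written "-like" because it was named from marker genes of its clusters.

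The microglia-like class held 1095 cells of suffix 1, 64 of suffix 2 and 2 of suffix 3, and those 2 cells were too few for a level. The count in suffix 3 depended on the processing. It was 24 with finer clustering (Leiden resolution 1.0) and 23 with cells named by their own marker UMIs. Under the other ways of clustering it was 2 or 3. No level is given for microglia-like cells of suffix 3 under any of these. All 10 microglia markers had UMIs in both larger sets, at a summed level of 35862 CPM in suffix 1 and 20142 CPM in suffix 2. The other classes were border-associated-macrophage-like, conventional-dendritic-like, mature-migratory-dendritic-like, monocyte-like, non-classical-monocyte-like, neutrophil-like and NK-like. An endothelial-like cluster had too few cells in every suffix. A cluster led by proliferation genes such as Birc5, Ube2c and Top2a stayed unnamed and is called cluster 8. It met the rule for 3 microglia, 4 conventional dendritic and 3 neutrophil markers, none of them among its leading genes. The border-associated-macrophage-like cluster met the rule for each of the 10 microglia markers as well as for its own class.

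Proteins of the Bcl2 family set the threshold for the mitochondrial pathway of apoptosis. Bax and Bak1 can form pores in the outer mitochondrial membrane and so release cytochrome c. The pro-survival proteins hold Bax, Bak1 and the BH3-only proteins in check, and the BH3-only proteins Bcl2l11 (Bim) and Bid tip the balance towards death. Different blood and tissue cells are known to rely on different pro-survival members. Bcl2a1 (A1) is known as an NF-kB target of haematopoietic cells, and in the mouse it exists as several near-identical copies.

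The Bcl2a1 copies were higher in microglia-like cells of suffix 2 than of suffix 1 and their reads are hard to tell apart, so their sequences come first. All 3 are protein-coding genes of chromosome 9 in GRCm38 (GENCODE M21): Bcl2a1d at 88723285 to 88731914 on the minus strand, Bcl2a1a at 88956900 to 88962419 on the plus strand and Bcl2a1b at 89199209 to 89207827 on the plus strand. The first 60 of 516 coding bases are shown, from the start codon, with capitals at the positions where the copies differ, 6 of the 12 such positions in the coding sequence.
Bcl2a1a: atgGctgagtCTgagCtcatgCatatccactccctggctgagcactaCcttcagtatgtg
Bcl2a1b: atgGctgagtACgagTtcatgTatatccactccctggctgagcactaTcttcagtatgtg
Bcl2a1d: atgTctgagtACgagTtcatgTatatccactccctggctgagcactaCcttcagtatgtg
Transcripts of Bcl2a1a and Bcl2a1b were 98.2% identical, those of Bcl2a1a and Bcl2a1d 98.8%, and those of Bcl2a1b and Bcl2a1d 99.1%. In the last 300 bases, where 3′ reads fall, 35.5% of the windows of 50 bases of Bcl2a1a, 25.9% of those of Bcl2a1b and 5.18% of those of Bcl2a1d were found in no other copy. A read of 50 bases from the remaining windows cannot be assigned to 1 copy. A longer read can span more differing bases, and other window lengths were not counted. How the authors' counting treated shared reads is not given in the sources used here. The split between the 3 genes is therefore uncertain, and their sum is given beside it. The sum can depend on the mix of copies too, if shared reads were left out of the counts. Bcl2a1b also shares 401 of its 817 exon bases with Gm29094 on the same strand, 54 of them within the last 300 bases.

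The copies share more than coding sequence. The window below lies before the transcription start of each gene in the RefSeq promoters of GRCm38.p6 (Bcl2a1a chr9:88956770-88956849, plus strand; Bcl2a1b chr9:89199079-89199158, plus strand; Bcl2a1d chr9:88731915-88731994, minus strand). Capitals mark TGAATCA, a match to the AP-1 letters TGANTCA with the middle base left free, and GAGGAAGT, a match to the letters bound by PU.1, the myeloid Ets factor.
Bcl2a1a: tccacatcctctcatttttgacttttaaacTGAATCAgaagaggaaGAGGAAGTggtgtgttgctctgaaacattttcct
Bcl2a1b: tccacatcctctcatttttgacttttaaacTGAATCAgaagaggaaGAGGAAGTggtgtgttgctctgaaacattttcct
Bcl2a1d: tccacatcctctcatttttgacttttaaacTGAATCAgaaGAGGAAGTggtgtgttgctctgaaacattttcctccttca
The TGAATCA began 120, 164 and 114 bases before the RefSeq start of Bcl2a1a, Bcl2a1b and Bcl2a1d, and the GAGGAAGT began 104, 148 and 104 bases before it. Searched on both strands over 300 bases per promoter, TGANTCA was present in 7.81% of 32851 promoters, GAGGAAGT in 3.20% and both in 0.283%. The motifs do not overlap each other in these windows. Of the 13 promoters of the 10 genes, only the 3 of the Bcl2a1 genes held both, and that of Bak1 held GAGGAAGT. A match describes letters, not a site in use.

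Bcl2 (ENSMUSG00000057329, chromosome 1, 106538178 to 106714274), the founding pro-survival gene, was highest in NK-like cells, a class of lymphocytes. Its level was 764 CPM (662 to 878) in NK-like cells of suffix 2 and 778 CPM (622 to 960) in those of suffix 3. The next level in order was 144 CPM (93.4 to 213) in non-classical-monocyte-like cells of suffix 3, and the median over the 17 sums was 37.5 CPM. This gap was the only 1 of 16 between neighbours in the order of Bcl2 levels at which the intervals did not meet. Microglia-like cells lay near the bottom, with 21.3 CPM (17.4 to 25.8) in suffix 1 and 9.87 CPM (2.04 to 28.9, 3 UMIs) in suffix 2. The lowest level was 9.52 CPM (2.59 to 24.4), in mature-migratory-dendritic-like cells. With every cell thinned to 2000 UMIs, 68.7% (56.2 to 79.4) of 67 NK-like cells of suffix 2 and 74.2% (55.4 to 88.1) of 31 of suffix 3 had a Bcl2 UMI. The share was 3.70% (2.63 to 5.04) of 1027 microglia-like cells of suffix 1 and 0 of 54 mature-migratory-dendritic-like cells, the class of lowest level, which allows a share of up to 5.56%. Unthinned, these shares were 75.9%, 75.8%, 8.58% and 5.56%, at median depths of 3092, 3002, 3415 and 7145 UMIs. Exons of Bcl2 overlap D630008O14Rik on the opposite strand, and whether the counting used strand is not given in the sources used here.

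**Figure D1:**
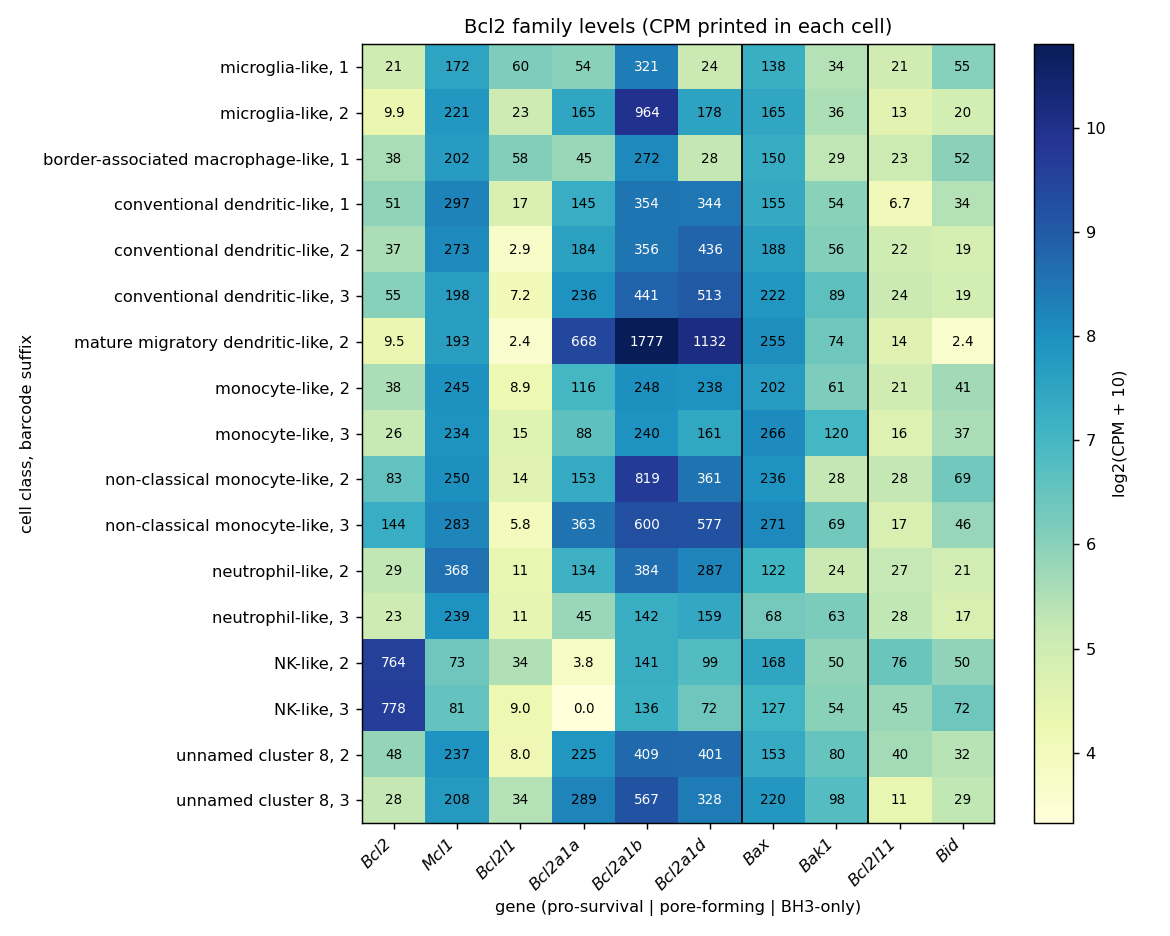
Heat map of the levels of the 10 genes (columns, grouped by role) in the 17 sums of a class and barcode suffix (rows). Color is log2(CPM + 10) and the printed numbers are CPM. Bcl2 stood highest in the NK-like rows, the Bcl2a1 genes in the mature-migratory-dendritic-like row and Bcl2l1 in microglia-like and border-associated-macrophage-like cells of suffix 1.

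Mcl1 (ENSMUSG00000038612, chromosome 3, 95658788 to 95663176), a pro-survival gene with a short-lived protein, ran the other way in NK-like cells. It had 72.6 CPM (43.7 to 113) there in suffix 2 and 81.4 CPM (37.2 to 154) in suffix 3, the lowest of the 17 sums, which had a median of 234 CPM. The next level, 172 CPM (161 to 184) in microglia-like cells of suffix 1, had an interval apart from that of the NK-like cells of suffix 3. Upward of that, neighbours in the order did not differ beyond their intervals. Conventional-dendritic-like cells of suffix 1 had 297 CPM (238 to 366), and neutrophil-like cells of suffix 2 had the highest level, 368 CPM (323 to 417). The neutrophil-like cluster was mixed: 31 of its 94 cells of suffix 2 and 5 of its 30 of suffix 3 had at least 5 UMIs of the dendritic genes Cd209a and Mgl2. Without them, an alternative added after the data had been seen, Mcl1 was at 303 CPM in neutrophil-like cells of suffix 2 and at 133 CPM, in place of 239 CPM, in those of suffix 3. With the marked doublets kept, which redrew the clusters, the values were 233 and 124 CPM.

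Bcl2l1 (ENSMUSG00000007659, chromosome 2, 152780668 to 152831728), which encodes Bcl-xL, was highest in the brain macrophage classes of suffix 1. The 2 highest levels were 60.5 CPM (53.8 to 67.7) in microglia-like and 58.1 CPM (43.1 to 76.6) in border-associated-macrophage-like cells of suffix 1. The median over the 17 sums was 11.4 CPM, and the lowest level was 2.38 CPM (0.0602 to 13.3, 1 UMI) in mature-migratory-dendritic-like cells. Conventional-dendritic-like cells had 16.9 CPM (5.47 to 39.3, 5 UMIs) in suffix 1 and 2.88 CPM (0.785 to 7.37) in suffix 2. Both were below both brain macrophage classes of suffix 1 beyond the counting intervals. Cluster 8 in suffix 3 and NK-like cells of suffix 2 stood between, at 33.6 and 34.4 CPM, above the 23.0 CPM (9.26 to 47.5) of microglia-like cells of suffix 2. No 2 neighbours in the order had separate intervals. Thinned to 2000 UMIs, 11% (9.15 to 13.1) of microglia-like cells of suffix 1 had a Bcl2l1 UMI. The share was 3.03% (0.0767 to 15.8) of 33 conventional-dendritic-like cells of suffix 1, with an interval that overlapped, and 1.24% (0.151 to 4.42) of those of suffix 2. Unthinned, these shares were 22.7%, 12.1% and 2.48% at median depths of 3415, 9545 and 8067 UMIs.

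**Figure D2:**
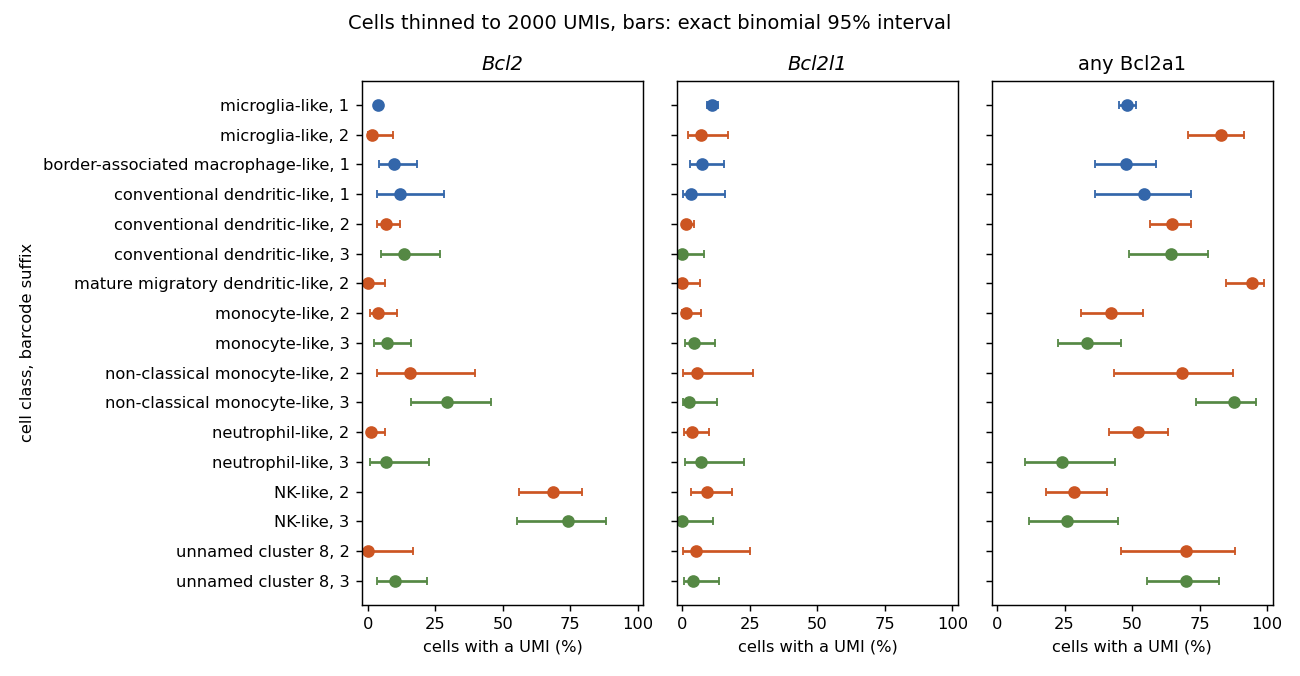
Share of cells, in %, with at least 1 UMI of Bcl2, of Bcl2l1 and of any Bcl2a1 gene after thinning to 2000 UMIs, for each class and barcode suffix. Points are shares and bars exact binomial 95% intervals, colored by suffix. The NK-like cells stand apart for Bcl2 (68.7% and 74.2%), and the mature-migratory-dendritic-like cells are highest for Bcl2a1 (94.4%).

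Each Bcl2a1 gene reached its highest level in mature-migratory-dendritic-like cells, the dendritic cells that mature and travel to lymph nodes. In the 54 cells of suffix 2, Bcl2a1b (ENSMUSG00000089929) had 1777 CPM (1652 to 1909), Bcl2a1d (ENSMUSG00000099974) 1132 CPM (1033 to 1239) and Bcl2a1a (ENSMUSG00000102037) 668 CPM (593 to 751). Each of these intervals was apart from that of the next sum in the order. The medians over the 17 sums were 356, 287 and 145 CPM. Together the 3 genes had 3578 CPM (3399 to 3763) in these cells, against 1540 CPM (1361 to 1737) in non-classical-monocyte-like cells of suffix 3. All 54 cells had a UMI of a Bcl2a1 gene (100%), and 94.4% (84.6 to 98.8) did after thinning. At the other end, NK-like cells had 245 and 208 CPM in suffixes 2 and 3, and 28.4% and 25.8% of thinned cells with a UMI. Bcl2a1a had 1 UMI in NK-like cells of suffix 2 and 0 in those of suffix 3, which allows up to 27.1 CPM.

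Conventional-dendritic-like cells had 843, 975 and 1190 CPM of the 3 genes together in suffixes 1, 2 and 3, and monocyte-like cells 602 and 488 CPM in suffixes 2 and 3. The level of 805 CPM in neutrophil-like cells of suffix 2 became 307 CPM without the cells with dendritic UMIs, and that of 347 CPM in suffix 3 became 31.3 CPM. With the family genes allowed in the clustering, Bcl2a1a in monocyte-like cells of suffix 3 moved from 88.2 to 189 CPM.

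The copies did not contribute in the same proportion everywhere. Bcl2a1b made up 80.4% (78.6 to 82.1) of 1990 Bcl2a1 UMIs in microglia-like cells of suffix 1 and 78.8% (73.7 to 83.3) of 297 in border-associated-macrophage-like cells of suffix 1. Its share was 36.5% (33.9 to 39.1) in conventional-dendritic-like cells of suffix 2 and 49.7% (47.1 to 52.2) in mature-migratory-dendritic-like cells. Bcl2a1d ran opposite, with 6.08% (5.07 to 7.22) in microglia-like cells of suffix 1 and 44.7% (42.1 to 47.4) in conventional-dendritic-like cells of suffix 2. The contrast was present within suffix 1 too, where conventional-dendritic-like cells gave Bcl2a1d 40.8% (34.6 to 47.2) of 250 UMIs. The shares rest on the uncertain assignment of reads shared by the copies, which was made in 1 matrix for all classes.

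**Figure D3:**
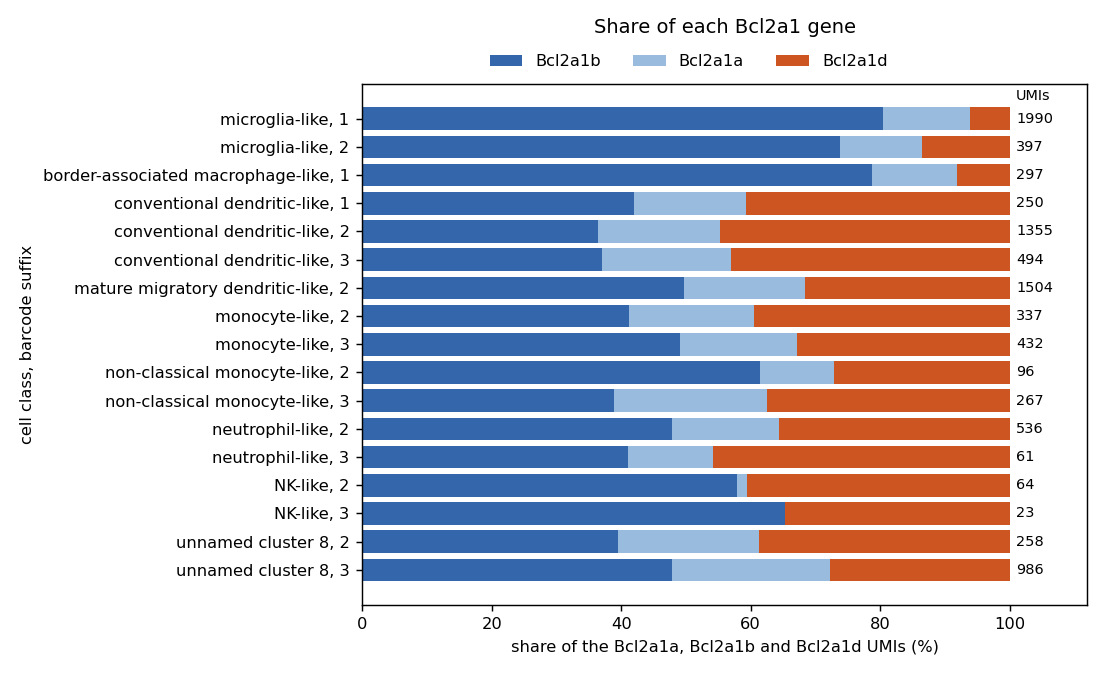
Stacked bars of the share, in %, of Bcl2a1b, Bcl2a1a and Bcl2a1d among the UMIs of all 3 genes, for each class and barcode suffix, with the number of UMIs at the right. Bcl2a1b holds 73.8% to 80.4% of the bar in the microglia-like and border-associated-macrophage-like rows, and Bcl2a1d has its smallest share there.

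The pore-forming genes ranged 3.97-fold for Bax and 4.99-fold for Bak1 over the 17 sums, and the lowest level of each was in the mixed neutrophil-like cluster. Without its cells with dendritic UMIs, Bax was at 54.8 CPM in suffix 3 and Bak1 at 33.0 CPM in suffix 2. Bax (ENSMUSG00000003873, chromosome 7, 45461697 to 45466898) ranged over the 17 sums from 68.2 CPM (35.3 to 119) in neutrophil-like cells of suffix 3 to 271 CPM (199 to 361) in non-classical-monocyte-like cells of suffix 3, with a median of 168 CPM. Microglia-like cells of suffix 1 had 138 CPM (128 to 149) and mature-migratory-dendritic-like cells 255 CPM (209 to 308), beyond each other's intervals. Bax shares 192 of its 1576 exon bases with Gm45808 on the same strand, which was not analysed here. Bak1 (ENSMUSG00000057789, chromosome 17, 27019810 to 27029009) ranged from 24.0 CPM (13.7 to 39.0) in neutrophil-like cells of suffix 2 to 120 CPM (98.1 to 145) in monocyte-like cells of suffix 3, with a median of 56.1 CPM. Its level in microglia-like cells of suffix 1 was 33.7 CPM (28.8 to 39.3). For neither gene did any 2 neighbours in the order have separate intervals. Exons of Bak1 overlap Ggnbp1 on the opposite strand.

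The BH3-only genes had 21.9 CPM (Bcl2l11) and 39.4 CPM (Bid) over all cells. Bcl2l11 (ENSMUSG00000027381, chromosome 2, 128126038 to 128162547) had its highest level, 76.4 CPM (46.7 to 118), in NK-like cells of suffix 2, with 45.2 CPM (14.7 to 105) in those of suffix 3. The median was 22.3 CPM, microglia-like cells of suffix 1 had 21.3 CPM (17.4 to 25.8), and the lowest level was 6.74 CPM (0.817 to 24.4, 2 UMIs) in conventional-dendritic-like cells of suffix 1. Bid (ENSMUSG00000004446, chromosome 6, 120891930 to 120916853), which links death receptors to mitochondria once cleaved by caspase-8, ranged from 2.38 CPM (0.0602 to 13.3, 1 UMI) in mature-migratory-dendritic-like cells to 72.3 CPM (31.2 to 143) in NK-like cells of suffix 3. Its median was 33.7 CPM, and microglia-like and border-associated-macrophage-like cells of suffix 1 had 54.6 CPM (48.3 to 61.5) and 52.3 CPM (38.1 to 70.0). Both genes had few UMIs in most sums, and neighbours in their orders did not differ beyond the intervals. Exons of Bid overlap Bcl2l13 on the opposite strand.

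Summed by role, the 6 pro-survival genes had 654 CPM in microglia-like cells of suffix 1 and 3783 CPM in mature-migratory-dendritic-like cells. The corresponding levels were 172 and 328 CPM for Bax with Bak1, and 75.9 and 16.7 CPM for Bcl2l11 with Bid. There were 2.64 UMIs of pro-survival genes for each UMI of the 4 death genes in microglia-like cells of suffix 1 and 10.97 in mature-migratory-dendritic-like cells. Monocyte-like cells of suffix 3 had 1.74 and border-associated-macrophage-like cells of suffix 1 had 2.53. The ratio leaves out other BH3-only genes, among them Pmaip1, which alone had 433 CPM in mature-migratory-dendritic-like cells. These are ratios of RNA molecules counted at 3′ ends, not scaled by length, and say nothing of protein.

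Microglia-like cells of suffix 2 were then set against those of suffix 1. The Bcl2a1 genes were higher in suffix 2, Bcl2l1 and Bid were lower, and Mcl1, Bax and Bak1 differed by less than 2-fold. Over all genes with a mean of both levels of at least 20 CPM, 3.33% of 4923 were at least 2-fold higher in suffix 2 and 12% were at least 2-fold lower. Of the 10 family genes 8 passed that filter, and 3 of them were higher and 2 lower. The 3 higher ones share most of their sequence and possibly reads, so they are not separate observations. The median log2 ratio was 0.30 over the 8 genes and -0.24 over all 4923.

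Bcl2a1b had 321 CPM (306 to 338) in suffix 1 and 964 CPM (857 to 1081) in suffix 2, a 3.00-fold difference and a log2 ratio of 1.59 (1.40 to 1.77). Bcl2a1a had 54.0 CPM (47.8 to 60.9) and 165 CPM (122 to 217), a log2 ratio of 1.61 (1.14 to 2.05). Bcl2a1d had 24.3 CPM (20.2 to 29.0) and 178 CPM (134 to 232), a log2 ratio of 2.87 (2.38 to 3.34). The 3 genes together stood at 400 CPM (382 to 418) in suffix 1 and 1307 CPM (1181 to 1442) in suffix 2. No interval of suffix 1 met that of suffix 2.

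The Bcl2a1b difference was spread over cells, while that of Bcl2a1d came from few. A Bcl2a1b UMI was found in 57 of 64 cells of suffix 2 (89.1%) and 676 of 1095 of suffix 1 (61.7%), at median depths of 3747 and 3415 UMIs. After thinning, a UMI of any Bcl2a1 gene was found in 82.8% (70.6 to 91.4) of 58 cells and 48.3% (45.2 to 51.4) of 1027 cells, both above the 28.4% of NK-like cells of suffix 2. Bcl2a1b ranged from 0 to 44 UMIs per cell in suffix 2 with a median of 3, and 6 cells with at least 10 UMIs held 138 of the 293. Bcl2a1d was detected in 11 of the 64 cells, and 1 cell held 48.1% of its 54 UMIs. Without that cell the log2 ratio was 1.96 for Bcl2a1d, 1.39 for Bcl2a1b and 1.39 for Bcl2a1a.

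Bcl2l1 had 60.5 CPM (53.8 to 67.7) in suffix 1 and 23.0 CPM (9.26 to 47.5, 7 UMIs) in suffix 2, a log2 ratio of -1.39 (-2.72 to -0.33). Bid had 54.6 CPM (48.3 to 61.5) and 19.7 CPM (7.25 to 43.0, 6 UMIs), a log2 ratio of -1.47 (-2.93 to -0.33). The intervals did not meet for either gene, but the values of suffix 2 rest on 7 and 6 UMIs, and a lower level was common among all genes. The 2-fold difference depended on the processing. The log2 ratio of Bid was -0.91 with cells named by their own marker UMIs and -0.84 in cluster 0 alone. That of Bcl2l1 was -0.98 with at most 5% mitochondrial counts and -0.83 with cells thinned before summing.

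Mcl1 had 172 CPM (161 to 184) and 221 CPM (171 to 280), a log2 ratio of 0.36 (-0.03 to 0.72). Bax had 138 CPM (128 to 149) and 165 CPM (122 to 217), a log2 ratio of 0.25 (-0.19 to 0.67). Bak1 had 33.7 CPM (28.8 to 39.3) and 36.2 CPM (18.1 to 64.8), a log2 ratio of 0.10 (-0.93 to 0.98). For these 3 genes the interval of the ratio included 0, so no difference was detectable at this depth. Bcl2 (106 and 3 UMIs) and Bcl2l11 (106 and 4 UMIs) were under the filter, with log2 ratios of -1.11 (-3.41 to 0.48) and -0.69 (-2.60 to 0.71). With Bcl2a1 included, microglia-like cells of suffix 2 had 6.68 pro-survival UMIs per UMI of the 4 death genes, against 2.64 in suffix 1. The Bcl2a1 genes held 397 of the 474 pro-survival UMIs in suffix 2 and 1990 of the 3255 in suffix 1. Bax with Bak1 had 61 UMIs and Bcl2l11 with Bid 10 in suffix 2, against 855 and 378 in suffix 1. None of the other pro-survival genes, Bcl2, Mcl1 and Bcl2l1, was at least 2-fold higher in suffix 2. The 2 ratios therefore do not describe a shift of the family as a whole. The ratio without the Bcl2a1 genes was not computed.

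**Figure D4:**
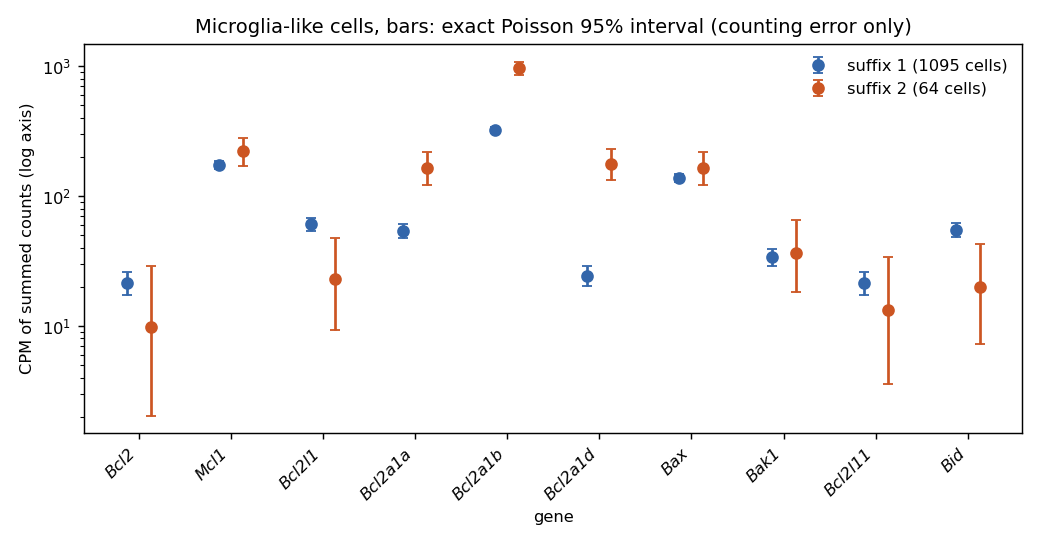
Levels (CPM, log axis) of the 10 genes in microglia-like cells of barcode suffix 1 (1095 cells, blue) and suffix 2 (64 cells, orange), with exact Poisson 95% intervals. The Bcl2a1 genes are higher in suffix 2 and Bcl2l1 and Bid lower, with intervals that do not meet.

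The microglia-like class joined 3 clusters, whose makeup differed between suffixes. Suffix 1 had 483, 426 and 186 cells in clusters 0, 1 and 2, and suffix 2 had 36, 2 and 26. Clusters 0 and 1 were led by genes that included the microglia markers P2ry12, Gpr34 and Tmem119. Cluster 2 met the rule for all 10 microglia markers but was led by the immune and immediate early genes Il1a, Ccl3, Egr1, Tnf and Cd83.

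Within suffix 1, Mcl1 differed between all 3 clusters beyond the counting intervals. It had 75.3 CPM (62.4 to 90.2) in cluster 0, 170 CPM (153 to 189) in cluster 1 and 292 CPM (263 to 323) in cluster 2, a 3.87-fold range. Bcl2a1d had 11.5 CPM (6.81 to 18.2), 13.8 CPM (9.24 to 19.8) and 56.5 CPM (44.4 to 71.0), and Bcl2a1b had 273, 280 and 446 CPM. For both genes cluster 2 stood above the other two beyond the intervals. Bcl2l1 had 59.4, 62.3 and 58.8 CPM in clusters 0, 1 and 2, and its intervals overlapped. None of these genes had entered the clustering.

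Within cluster 0, Bcl2a1b was 273 CPM (247 to 300) in suffix 1 and 577 CPM (449 to 730) in suffix 2, a 2.12-fold difference. Within cluster 2 it was 446 CPM (411 to 484) and 1233 CPM (1076 to 1406), a 2.76-fold difference. The higher Bcl2a1b of suffix 2 was thus present in both clusters. Bcl2a1a was 66.4 and 222 CPM in cluster 2, but in cluster 0 it was 55.6 and 83.6 CPM, with a log2 ratio of 0.59 (-0.52 to 1.54). Bcl2a1d was 56.5 and 294 CPM in cluster 2, a 5.21-fold difference. There 1 cell held 26 of its 53 UMIs in suffix 2, and the level of the cluster without that cell was not computed. In cluster 0 Bcl2a1d was 11.5 and 8.36 CPM (1 UMI), a log2 ratio of -0.46 (-5.84 to 2.20). For both genes no difference was detectable at the depth of cluster 0. Mcl1 had 75.3 and 75.2 CPM in cluster 0 and 292 and 300 CPM in cluster 2, and log2 ratios of -0.0019 (-1.17 to 0.97) and 0.04 (-0.40 to 0.45).

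**Figure D5:**
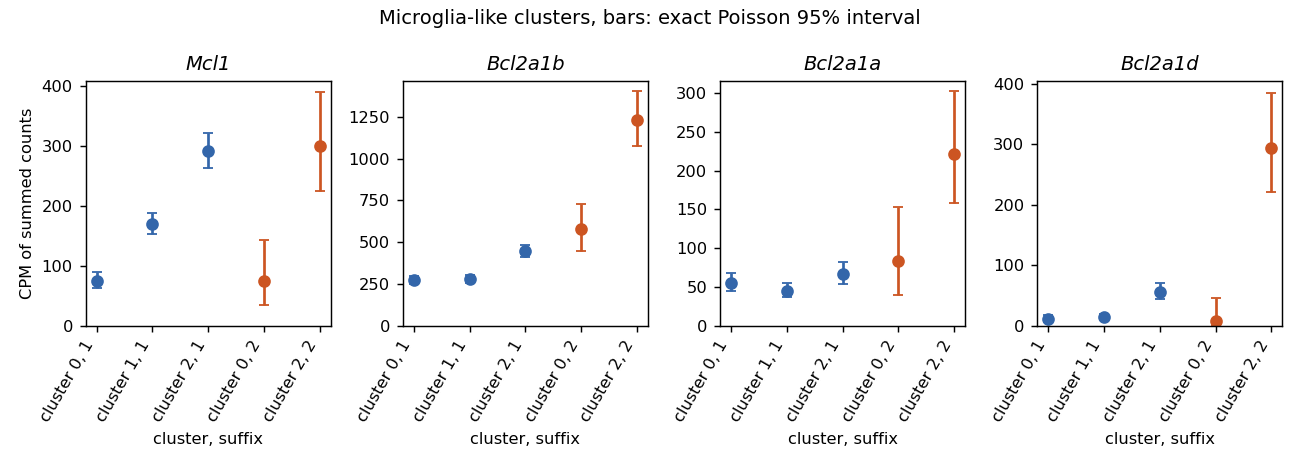
Levels (CPM, separate axes) of Mcl1, Bcl2a1b, Bcl2a1a and Bcl2a1d in microglia-like clusters 0, 1 and 2 of suffix 1 (blue) and clusters 0 and 2 of suffix 2 (orange), with exact Poisson 95% intervals. Mcl1 has like levels in the 2 suffixes of a cluster, and Bcl2a1b is higher in suffix 2 in both clusters. Bcl2a1d is higher in suffix 2 in cluster 2, where 1 cell holds 26 of its 53 UMIs, but not in cluster 0 (1 UMI).

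In microglia-like cells, summed markers of other cell types differed between the suffixes in both directions. Neutrophil markers summed to 217 CPM in microglia-like cells of suffix 1 and 856 CPM in those of suffix 2 (8 of 10 with a UMI in each), against 118536 CPM in neutrophil-like cells of suffix 2. S100a8 was 26.9 and 303 CPM. Conventional dendritic markers summed to 43.0 CPM (9 of 12 with a UMI) and 82.3 CPM (5 of 12), against 3867 CPM in their own class of suffix 2, and Cd209a was 7.03 and 29.6 CPM. Monocyte markers summed to 22.1 CPM (8 of 10) and 46.1 CPM (6 of 10), against 9711 CPM in monocyte-like cells of suffix 2. Non-classical monocyte markers summed to 183 CPM (8 of 8) and 306 CPM (4 of 8), against 4679 CPM in their own class of suffix 2, and NK markers to 3.01 CPM (6 of 10) and 26.3 CPM (4 of 10). Mature migratory dendritic markers were lower in suffix 2, at 362 against 649 CPM, 6 of 8 with a UMI in each. Border-associated macrophage markers were also lower, at 201 CPM (4 of 10) against 390 CPM (10 of 10). The part of these transcripts in the Bcl2a1 difference was not tested. Of the immediate early and NF-kB feedback genes, all 16 passed the filter, Fos, Fosb and Nfkbiz were at least 2-fold higher in suffix 2 and 0 were lower, beside 3.33% higher and 12% lower over all genes. Nfkbiz, a feedback regulator of NF-kB, had 92.6 and 234 CPM, while Atf3 had 554 and 546 CPM. Jun was lower in suffix 2, with 2376 and 1290 CPM, a log2 ratio of -0.88 (-1.03 to -0.74), and Junb and Jund had log2 ratios of -0.26 and -0.29 with intervals below 0. Within cluster 0, Fos had 146 and 142 CPM in suffixes 1 and 2. Within cluster 2 it had 1479 CPM (1414 to 1547) and 2182 CPM (1972 to 2409), and these intervals did not meet. The part of the makeup of clusters in the 2-fold value of the class was not tested. Nfkbiz had 8.94 and 16.7 CPM (2 UMIs) in cluster 0 and 276 and 383 CPM in cluster 2. Fosb had 46.6 and 83.3 CPM in cluster 2, and its intervals there overlapped.

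The levels of conventional-dendritic-like cells stood beside these as follows. Bcl2a1b had 354 CPM (290 to 429) in suffix 1 and 356 CPM (325 to 388) in suffix 2, a log2 ratio of 0.01 (-0.30 to 0.32). Bcl2a1a had 145 and 184 CPM, and Bcl2a1d had 344 and 436 CPM, a log2 ratio of 0.34 (0.04 to 0.66). Bcl2l1 was lower in suffix 2, with 16.9 CPM (5 UMIs) and 2.88 CPM (4 UMIs), a log2 ratio of -2.55 (-4.88 to -0.33). Bid had 33.7 and 18.7 CPM, a log2 ratio of -0.85 (-1.95 to 0.37). The difference between the classes was not tested.

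Of 16 other genes of the family, 5 passed the filter in the microglia-like comparison. Pmaip1, which encodes the BH3-only protein Noxa, was at least 2-fold higher in suffix 2, with 19.5 CPM (15.8 to 23.8) and 39.5 CPM (20.4 to 69.0, 12 UMIs), a log2 ratio of 1.02 (0.02 to 1.89). No other of the 5 was past 2-fold, so 1 was higher and 0 lower, beside 3.33% and 12% of all genes. Bnip3l, a mitophagy receptor with a BH3-like domain, had 188 and 194 CPM, and the BH3-only gene Bad had 39.0 and 32.9 CPM. With Pmaip1, these were the other family genes of highest level over all cells, at 154, 40.3 and 119 CPM for Bnip3l, Bad and Pmaip1. The median log2 ratio of the 5 was -0.02.

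Of 20 genes of the mitochondrial death pathway 12 passed the filter, 0 were higher and 1 was lower, beside 3.33% and 12% of all genes. The lower one was Casp8, the initiator caspase that cleaves Bid, with 134 CPM (665 UMIs) in suffix 1 and 59.2 CPM (18 UMIs) in suffix 2, a log2 ratio of -1.17 (-1.94 to -0.50). The median log2 ratio of the list was -0.38. Cycs, which encodes cytochrome c, had 106 and 69.1 CPM, a log2 ratio of -0.62 (-1.32 to 0.01). The mitochondrial channel genes Vdac1 and Vdac2 had 100.8 and 72.4 CPM and 274 and 300 CPM. Casp8 and Bid were both lower in suffix 2, against a background in which 12% of genes were, and a link between them was not tested.

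The genes whose levels followed each family gene most closely over the 17 sums were found by Pearson's r of log2(CPM + 10) among 4833 genes, as a description. The sums share libraries and depth. For Bcl2 they were Ugcg (0.94), Il2rb (0.91), which is an NK marker used in naming, and Gimap7 (0.90). For Mcl1 they were Csf2rb (0.95), Nfe2l2 (0.91) and Gm2a (0.91). For Bcl2l1 they were Tmem37 (0.89), Mgat4a (0.89) and Itpr2 (0.88). Bcl2a1a was followed by Atox1 (0.91), Adrbk2 (0.83) and Tax1bp3 (0.83), and Bcl2a1d by Lsp1 (0.89), Rps19 (0.89) and Atox1 (0.87). Bcl2a1b had Bcl2a1a itself first (0.83), then Brk1 (0.82) and Tax1bp3 (0.81). The closest genes were Lamtor5 (0.84), Ogfr (0.82) and Spr (0.82) for Bax, and Cfl1 (0.86), Gtf2h5 (0.85) and Uqcrq (0.84) for Bak1. They were Rchy1 (0.82), BC029214 (0.80) and Cnot3 (0.78) for Bcl2l11, and Chst12 (0.87), Rgs2 (0.86) and Spata13 (0.84) for Bid. Between family genes the lowest r were -0.79 for Bcl2l1 with Bcl2a1d and -0.71 for Bcl2 with Mcl1. The NK-like sums were the highest for Bcl2 and the lowest for Mcl1, and r without them was not computed.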

How the data were processed

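The authors deposited UMI counts as whole numbers, genes by cells, in 1 matrix of 10x Genomics Chromium 3′ v2 libraries. Cell Ranger 2.0.1 and mm10 are named in the submitters' processing notes. The annotation and the rule by which barcodes were called cells are not given in the sources used here.

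Cells with at least 500 genes and at most 10% mitochondrial counts were kept, which removed 5. Scrublet in scanpy 1.11.5 (expected rate 5%) marked 9 of 2144 cells as doublets (0.42%), below the rate set. Whether the caller missed doublets was not tested, so doublets must be reckoned with among the 2135 cells used. Leiden clustering (resolution 0.5, 30 components of 2000 variable genes, 15 neighbours, igraph 0.11.9) left out the 10 genes and 16 other family genes, and gave 12 clusters. A cluster was named for a class with at least 3 markers, each detected in at least 30% of its cells and at least 2 times the median CPM over clusters. Where several classes qualified, the most markers among the 10 leading genes decided. Clusters led by proliferation genes without a leading marker of their class stayed unnamed. These scoring rules were set after the clusters had been seen.

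CPM of summed counts have exact Poisson intervals, shares have exact Clopper-Pearson intervals and ratios have exact conditional binomial intervals (scipy 1.17.1). A count of 0 is given with the limit of 3 counts. Of these, only the interval of the ratio was tested on simulated data. The simulated counts were drawn from the Poisson model, without spread from cell to cell, so the test checked the computation alone. Shares used cells thinned to 2000 UMIs, and shallower cells were left out. In the microglia-like comparison, genes past 2-fold were counted. Named genes are the 10, other family and death pathway genes past 2-fold or among the 3 highest over all cells, and the 3 most similar genes of each of the 10. Promoters came from RefSeq and transcripts from GENCODE M21, and each of the 10 symbols was found in both. The genes, lists and comparison were chosen with earlier results of these data known. Alternatives covered clustering, naming, doublets, filters, thinning and the summary over cells.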

Additional observations from a re-analysis of the deposited data

How the results depend on the processing

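The count of family genes at least 2-fold higher in microglia-like cells of suffix 2 was 3 under every alternative except cluster 0 alone, where it was 1 (Bcl2a1b). The count of those lower was 2, and it became 1 with at most 5% mitochondrial counts (Bid), with cells named by their own marker UMIs (Bcl2l1), with cells thinned to 2000 UMIs before summing (Bid) and in cluster 0 alone (Bcl2l1). It was 0 when a mean of at least 50 CPM was asked, since Bcl2l1 and Bid were then not tested, and 3, with Bcl2 added, at a mean of 10 CPM or without a filter. Without a filter 8.17% of the 13552 genes with a UMI were higher and 40.4% lower, and genes with 0 UMIs in 1 suffix were counted. Suffix 2 had 303838 UMIs in these cells and suffix 1 had 4978224, so a gene of low level can easily have 0 in suffix 2. The lower share was 16.0% at a mean of 10 CPM and 7.96% at 50 CPM, and the higher share 3.98% and 3.31%. The share of lower genes thus depended on the filter. The log2 ratio of Bcl2a1b ranged from 1.08 to 1.65 over 12 alternatives, that of Bcl2a1a from 0.59 to 1.74 and that of Bcl2l1 from -1.83 to -0.83. Bcl2a1d ranged from -0.46, the reversed value in cluster 0 alone (1 UMI), to 3.28, and its level in suffix 2 was 105 CPM as the mean of per-cell values in place of 178 CPM. Levels by class moved by more than their counting interval in 69 of 930 comparisons with an alternative, among them 19 of 150 with doublets kept and 12 of 20 without neutrophil-like cells with dendritic UMIs. Shares of cells with a UMI moved in 191 of 638, of which 12 were with another random draw and the rest without thinning or with thinning to 1000 UMIs. No paired analysis was possible because each group has 1 library. The alternatives within a cluster, without 1 cell, with both ways of naming at once and without neutrophil-like cells with dendritic UMIs were chosen after the data had been seen. Depth limits Bcl2, Bcl2l11, Bcl2l1 and Bid in suffix 2, where each had at most 7 UMIs in microglia-like cells.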

Other observations

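The mature-migratory-dendritic-like cells of suffix 2, the class with the most Bcl2a1, also held the highest level among the 17 sums of several other genes of the death pathway, chosen here after their values had been seen. Birc2, which encodes the inhibitor of apoptosis protein cIAP1, had 438 CPM there against 49.2 CPM over all cells. Pmaip1 had 433 CPM against 119 CPM, and Htra2, a mitochondrial serine protease, had 188 CPM against 64.0 CPM. Cflar, which encodes the caspase-8 inhibitor c-FLIP, had 178 CPM against 89.0 CPM. Fas, the death receptor, had 157 CPM against 14.6 CPM, and Bcl2l14 had 136 CPM against 5.41 CPM. Both inhibitors and promoters of apoptosis were thus among the genes highest in this class, while Bcl2l1 and Bid had their lowest levels there. Birc5, which encodes survivin and is a gene of dividing cells, was highest in the unnamed cluster led by proliferation genes, with 582 CPM in suffix 2.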
